A study of Mus musculus with 8 samples.

Results

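Bidirectional promoter long noncoding RNAs are commonly understood as transcripts that start close to a coding gene and run away from it on the opposite strand. The deposited table of noncoding probes marks 888 of its 7633 probes with the class "bidirection", and these 888 probes are the RNAs described here. The distance between starts behind that class is not given in the sources used here. Each stands for 1 transcript and has 1 spot per array. Their names came from UCSC known genes (393 probes), the NRED database (332), the stringent FANTOM set (124) and RefSeq (39).

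The cells were mouse embryonic fibroblasts, Atm-/- or Atm+/+, from littermate embryos. They were taken untreated (0 h) or at 4, 8 and 24 h of a time course that began with neocarzinostatin (NCS). Each genotype had 1 array at each time, 8 arrays in all. The labels give no dose, and none of the 8 arrays has a second sample of its group. The study asked how long noncoding RNAs are regulated when DNA is damaged.

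ATM is a protein kinase that DNA double-strand breaks activate, and p53 is among the proteins it phosphorylates. NCS is a drug that cuts DNA much as ionizing radiation does. Many mammalian promoters drive transcription both ways, often from CpG islands without a TATA box, so that a noncoding RNA and a coding gene can leave the same open stretch of chromatin. Some such RNAs follow the level of the neighbouring gene, and others do not.

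Levels are log2 of the processed signal relative to the array's 75th percentile, so that 0 is the level of the 75th percentile probe. Feature Extraction marked 44 to 1545 spots per array as outliers, most of them on the Atm+/+ 24 h array. The level of Atm averaged 1.24 ± 0.18 lower (SE, log2) in Atm-/- cells, with all Atm-/- arrays below all Atm+/+ arrays (limma adjusted p = 0.0137). The 4 Atm-/- arrays were on slide 2 and the 4 Atm+/+ arrays on slide 1, so slide and genotype cannot be told apart. The Y-linked genes Ddx3y, Eif2s3y, Uty and Kdm5d were well above background on the 4 Atm+/+ arrays only, and Xist was highest on the 4 Atm-/- arrays, so sex and genotype cannot be told apart either. Of the defining markers, 8 of 8 for fibroblasts were well above background on every array (3 lower in Atm-/- cells, summed linear level 625 to 724 in Atm-/- cells and 782 to 857 in Atm+/+ cells). Of 9 macrophage and blood markers 6 were kept and all 6 were lower in Atm-/- cells, with a summed level of 11.2 to 20.3 in Atm-/- cells and 25.3 to 37.8 in Atm+/+ cells. Lyz1 and Adgre1 have no value on the Atm+/+ 24 h array, so the sum of that array leaves them out and is too low. Epithelial markers were higher in Atm-/- cells for 5 of 6 (3.55 to 6.83, against 2.01 to 3.45), and endothelial markers for 3 of 4 (2.08 to 5.14, against 0.811 to 1.59). The part of these markers in the differences below was not tested. In bulk RNA, fewer cells of a type and less RNA per cell cannot be told apart.

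The class could be set against RefSeq for few of the RNAs, and without the criterion behind it a share of head-to-head starts describes the named RNAs only. Of the 888 probes 31, for 28 genes, carry a name that RefSeq holds. RefSeq calls 19 of them lncRNA, 8 transcribed pseudogenes, 2 protein-coding, 1 antisense RNA and 1 the RNA of RNase MRP. A RefSeq start was given for 19 of the 31, and 12 of those 19 (63.2%) begin head to head with a coding gene, with gaps between the starts of -302 (an overlap) to 2646 bases. The same was true of 8 of 27 sense-overlapping RNAs (29.6%), 4 of 12 antisense RNAs (33.3%) and 1 of 21 of the remaining class (4.76%). These shares count probes, and starts are given by gene. Arhgap1 counts here and among the sense-overlapping RNAs, and A230072C01Rik here and among the antisense RNAs. For these genes a start cannot tell the classes apart. Tug1 has 2 probes in this class. The coding partners were Gata3, Pip4k2a, Uxt, Zfp408, Isca1, Pofut2, Adarb1, Lpxn, H1f10, Glrx5 and Morc2a. The partners of the other RNAs were not analysed here.

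The stretches between the starts show what these promoters look like. The pairs shown are those whose values are given below, and each stretch is RefSeq's (GRCm38.p6), read 5′ to 3′ on the strand of the lncRNA and ending just before its start. Capitals mark a match to GGGCGG (Sp1), CCAAT (NF-Y) or AAGATGG (YY1) on either strand.
Gm44505, the whole gap to Lpxn, chr19:12796124-12796192, minus strand: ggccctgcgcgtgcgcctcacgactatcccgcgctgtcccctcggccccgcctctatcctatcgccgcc
Gm17769, the whole gap to Adarb1, chr10:77418274-77418375, plus strand: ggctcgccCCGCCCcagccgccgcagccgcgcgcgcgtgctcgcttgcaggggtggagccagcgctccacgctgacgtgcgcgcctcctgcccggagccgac
4930412O13Rik, whose start is 2646 bases from that of Gata3, chr2:9880996-9881245, plus strand: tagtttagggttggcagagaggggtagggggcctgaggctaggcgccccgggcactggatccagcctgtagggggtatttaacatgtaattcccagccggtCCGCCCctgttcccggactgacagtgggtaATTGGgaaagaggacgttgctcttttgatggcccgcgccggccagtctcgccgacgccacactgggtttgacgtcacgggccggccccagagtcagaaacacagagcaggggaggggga
Snhg10, whose start is 339 bases from that of Glrx5, chr12:105032280-105032529, minus strand: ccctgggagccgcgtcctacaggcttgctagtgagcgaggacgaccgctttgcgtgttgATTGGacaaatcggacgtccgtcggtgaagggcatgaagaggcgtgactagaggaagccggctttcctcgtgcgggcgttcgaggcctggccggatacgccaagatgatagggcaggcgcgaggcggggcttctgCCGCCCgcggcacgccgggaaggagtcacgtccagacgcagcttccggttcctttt
Tug1, whose start is 623 bases from that of Morc2a, chr11:3648815-3649064, minus strand: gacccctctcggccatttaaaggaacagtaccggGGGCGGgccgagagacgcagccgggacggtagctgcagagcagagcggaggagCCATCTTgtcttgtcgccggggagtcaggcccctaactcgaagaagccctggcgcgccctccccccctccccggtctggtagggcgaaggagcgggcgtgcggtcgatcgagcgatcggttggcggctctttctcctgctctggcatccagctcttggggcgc

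In the 300-base windows of RefSeq's promoter table (250 bases before the start and 50 after it), the 19 promoters of 17 genes of this class had a median GC content of 64.7% and a median CpG observed-over-expected ratio of 0.85. All 11588 lncRNA promoters of the table had 48.3% and 0.24, and all 21263 coding promoters had 56.3% and 0.57. The motif GGGCGG was in 15 of the 19 (78.9%), against 16.3% of lncRNA promoters and 46.2% of coding promoters. The motif CCGGAAGT (ETS) was in 3 of 19 (15.8%), against 1.58% and 5.15%. The motif of the TATA box was in 1 of 19 (5.26%), against 15.5% and 12.6%. The motif CCAAT was in 7 of 19 (36.8%), against 36% and 38.2%. The motif AAGATGG was in 2 of 19, against 6.52% and 6.24%. The NRF1 core GCGCATGC was in 0 of 19, against 1.23% and 3.52%. The TATA box was searched as TATAAA. All motifs were searched on both strands, and a GGGCGG match may overlap a CCGGAAGT match. The promoters of 53 noncoding genes of the other classes on the array that RefSeq names had a median GC content of 61%, a ratio of 0.66 and GGGCGG in 58% of 69 windows. Of the 19 windows 4 belong to Arhgap1 and Rnf44, which RefSeq calls protein-coding. The other 15 had a median GC content of 64.7%, a ratio of 0.92, GGGCGG in 12 (80%), CCGGAAGT in 2 (13.3%) and the TATA box motif in 1 (6.67%).

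Of the 888 RNAs, 575 (64.8%) were well above background on all 8 arrays, 217 on 2 to 7 arrays and 96 on 1 array. So each of the 888 was seen on at least 1 array. Whether the array also holds RNAs of this class seen on no array cannot be told from the deposited table. The share on all arrays was 49.9% for intergenic, 60.9% for antisense and 76.9% for sense-overlapping RNAs. It was 54.3% for all 37246 probes, which include probes seen on no array. The 792 RNAs seen on at least 2 arrays were tested, together with all other probes of the array that passed the same filter. Among the RNAs seen on all arrays, the median SD over the 4 arrays of a genotype was 0.20 in Atm-/- cells and 0.19 in Atm+/+ cells (all probes 0.18 and 0.18).

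Between genotypes, 95 of the 792 RNAs passed the test (limma over time points and genotype, adjusted p under 0.05), which is 12% against a background of 14.7% of all 23279 probes. The Atm-/- cells had higher levels of 56 (background 7.29%) and lower levels of 39 (background 7.39%). All 95 differed in the same direction at each of the 4 time points that had a value in both genotypes. The calls come from a fit to these same arrays, so this adds no support to them. Of the 56 higher RNAs 15 differed by more than 2-fold, and of the 39 lower RNAs 11 did. Well above background on all arrays were 36 of the 56 and 30 of the 39. The fit takes the 4 time points together, and medians by time point are given with the single arrays below. Over all 792 RNAs the median difference was 0.08 and 62% were above 0, against a median of 0.01 and 51% over all probes. With outlier spots taken out ahead of the scaling, 51.4% were above 0, against 40.7% of all probes, and with a normexp background correction 46.6% were, against 44.2%. The calls depended on the scaling too. Taking out outlier spots first left 63 calls in place of 95 (29 higher, 34 lower), and normexp gave 35 higher and 49 lower. Of the 95 calls, 57 remained with outlier spots taken out first and 57 with normexp. The order used here, scaling first, had been chosen in an earlier analysis of these arrays after the counts under the opposite order had been seen. Without the arrays of 1 time point the count was 28 without 0 h, 28 without 4 h, 36 without 8 h and 159 without 24 h, whichever array of that time point was left out. In the 769 RNAs with a value on every array, all Atm-/- arrays lay above all Atm+/+ arrays for 88 (11.4%, background 9.74%) and below them for 42 (5.46%, background 8.31%). Intergenic RNAs had a median difference of -0.09 with 16.8% called, antisense RNAs 0.03 with 13.9% and sense-overlapping RNAs 0.01 with 13.6%. By source, 21.1% of the 38 tested RefSeq RNAs were called, 12.9% of the FANTOM RNAs, 12.5% of the NRED RNAs and 10.3% of the UCSC RNAs.

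**Figure D1:**
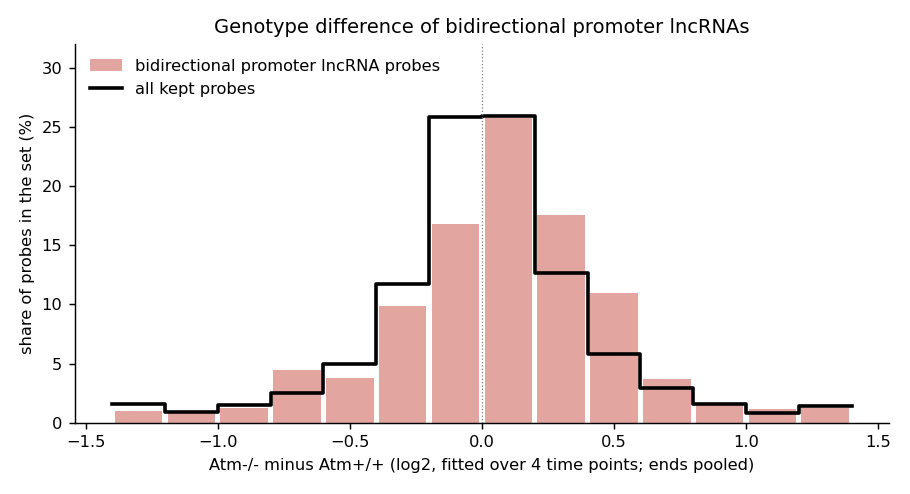
Share of probes (percent, vertical axis) by fitted difference Atm-/- minus Atm+/+ (log2, horizontal axis, values beyond the ends pooled in the last bins), for the 792 tested bidirectional promoter lncRNAs (bars) and all 23279 tested probes (line). In the bins above 0 lie 62% of the lncRNAs and 51% of all probes.

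Among the RNAs higher in Atm-/- cells, the UCSC transcript uc009kxe had levels of -3.71, -3.95, -4.19 and -4.24 in Atm-/- cells at 0, 4, 8 and 24 h, against -6.48, -5.74, -6.59 and -6.47 in Atm+/+ cells. It was well above background on all 4 Atm-/- arrays and on no Atm+/+ array, so the difference was at least 3.27-fold (measured difference 2.30 ± 0.17, adjusted p = 0.00313). AK085973, a full-length cDNA clone, had -3.19, -3.22, -3.28 and -3.85 in Atm-/- cells and -4.97, -5.34, -5.91 and -6.17 in Atm+/+ cells. Its groups did not overlap, and it was detected on 2 of the Atm+/+ arrays (difference 2.21 ± 0.15, adjusted p = 0.00275). AK044039 had -1.74, -1.72, -1.91 and -1.70 in Atm-/- cells and -2.60, -3.03, -3.30 and -3.07 in Atm+/+ cells. It was detected on all 8 arrays with every Atm-/- array above every Atm+/+ array (difference 1.23 ± 0.11, adjusted p = 0.00489). The same separation held on all 8 arrays for AK089301 (1.12 ± 0.10, adjusted p = 0.00424) and uc009gbm (1.08 ± 0.13, adjusted p = 0.00836).

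AK089488, uc007mlf and uc008xen were on no Atm+/+ array well above background, and were at least 1.10-fold, at least 1.06-fold and at least 1.13-fold higher in Atm-/- cells (adjusted p = 0.00222, 0.0208 and 0.0160). For uc009ual, detected on 2 Atm-/- arrays only, no fold can be given (adjusted p = 0.0171). Like uc009kxe, these RNAs passed the filter through Atm-/- arrays alone. Their p-values rest on Atm+/+ signals not well above background and add no support to the bounds. The others of the 12 with the largest differences were uc007epc (1.45 ± 0.20), 4930412O13Rik (1.27 ± 0.17) and uc007uhg (1.13 ± 0.11), each detected on 4 Atm-/- and 2 Atm+/+ arrays.

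Among the RNAs lower in Atm-/- cells, AK013525 had -0.96, -1.21, -1.27 and -0.94 in Atm-/- cells, against 0.07, 0.28, 0.49 and 0.72 in Atm+/+ cells. The groups did not overlap (difference -1.48 ± 0.14, adjusted p = 0.00493). The transcript uc008brb had -5.59, -5.76, -6.25 and -5.10 in Atm-/- cells and -4.05, -4.14, -4.22 and -3.94 in Atm+/+ cells. Here too every Atm-/- array lay lower, and 3 of the 4 were above background (difference -1.59 ± 0.15, adjusted p = 0.00514). Gm5643 had 3.07, 2.51, 2.53 and 3.46 in Atm-/- cells and 3.93, 4.27, 3.83 and 4.04 in Atm+/+ cells (difference -1.13 ± 0.21, adjusted p = 0.0275). RefSeq lists Gm5643 as a transcribed pseudogene, and whether its probe also binds RNA of the parent gene was not tested. For AK049490 and AK049715 the Atm+/+ array at 8 h lay within the range of the Atm-/- arrays (differences -1.50 ± 0.26 and -1.05 ± 0.19). AK015639 (-1.25 ± 0.19), AK015605 (-1.11 ± 0.17), AK013501 (-1.08 ± 0.14), AK044300 (-1.04 ± 0.23) and uc007jdv (-1.55 ± 0.33) made up the rest that were detected on at least 1 array of each genotype. AK014654 and uc009glg were on no Atm-/- array well above background and were at least 1.48-fold and at least 1.42-fold lower (adjusted p = 0.0266 and 0.0228). They passed the filter through Atm+/+ arrays alone, and their p-values rest on Atm-/- signals not well above background.

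**Figure D2:**
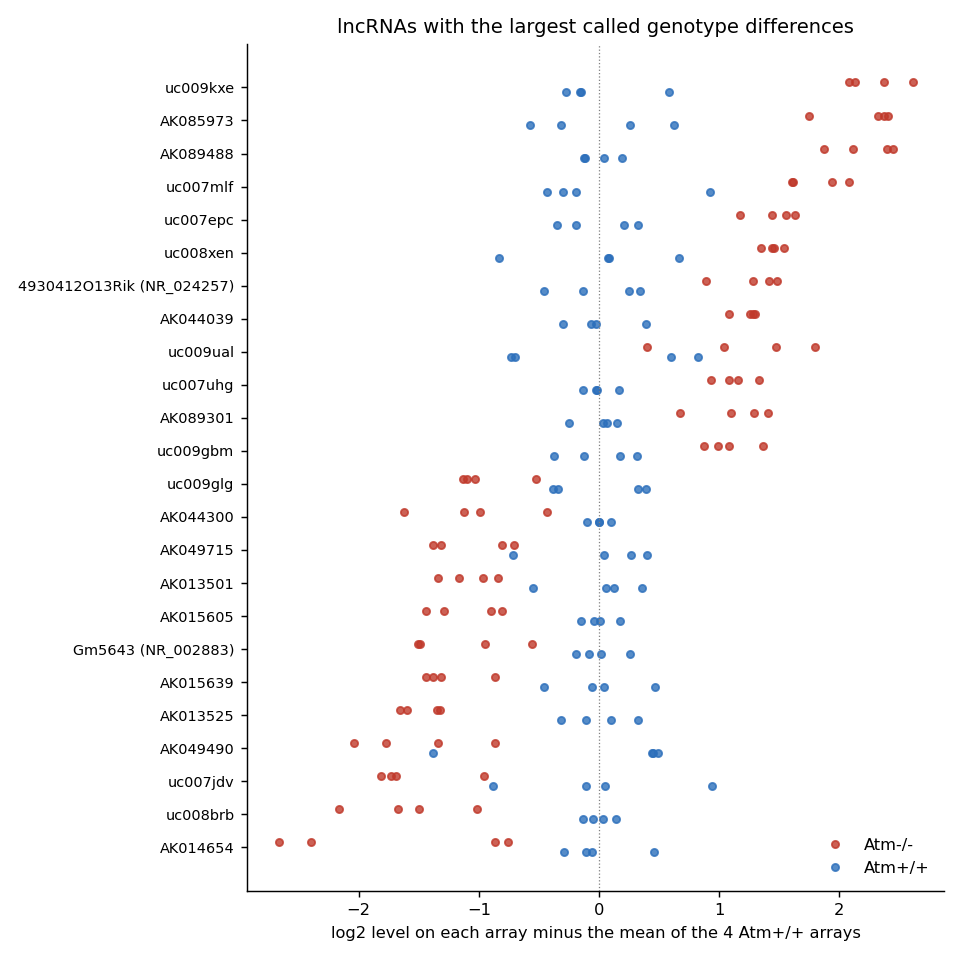
Level of each of the 24 named RNAs on each array minus the mean of its 4 Atm+/+ arrays (log2, horizontal axis), with Atm-/- arrays in red and Atm+/+ arrays in blue, 4 points of each. The top 12 rows have their red points on the right and the bottom 12 on the left, and the 2 colours overlap for uc009ual, AK049490 and AK049715.

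Of the 24 RNAs named for genotype, 9 passed the test under each of 21 to 22 alternative settings: uc009kxe, AK085973, AK089488, AK044039, uc007uhg, AK089301, uc009gbm, uc008brb and AK013525. The settings are not all distinct. Of them 12 left out arrays, and leaving out either array of a time point or both gave the same counts, so each time point adds 1 result. Of the 9, uc009kxe and AK089488 were well above background in Atm-/- cells only. The other 15 lost the call under at least 1 setting, and all 24 kept their direction. Sizes depended on the background correction: with normexp 16 of the 24 differences were more than 1.5 times smaller, among them uc009kxe at 0.95, AK089488 at 0.47, uc007uhg at 0.35, 4930412O13Rik at 0.33 (adjusted p = 0.162) and uc007mlf at 0.07 (adjusted p = 0.709). At the threshold, uc009lda (-0.49, adjusted p = 0.0493) was the last called RNA and uc008awd (-1.02, adjusted p = 0.0508) the first not called.

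Of the 38 tested RefSeq RNAs, 4 were higher and 4 lower in Atm-/- cells. Rmrp, the RNA component of the RNase MRP ribonucleoprotein, had 1.14, 1.48, 0.89 and 0.60 in Atm-/- cells and 0.82, 0.80, 0.42 and 0.16 in Atm+/+ cells. It was higher in Atm-/- cells at each time point although the ranges overlapped (0.48 ± 0.09, adjusted p = 0.0257). Snhg10, a host transcript of a small nucleolar RNA, had -1.14, -1.16, -1.16 and -1.41 in Atm-/- cells and -1.55, -1.67, -1.72 and -1.70 in Atm+/+ cells (0.45 ± 0.08, adjusted p = 0.0243). The related host transcript Snhg1 differed by 0.05 ± 0.06 (adjusted p = 0.664). Gm44505 and 4930412O13Rik, described with their partners, were the other higher ones. The lower ones were Gm5643, Gm10052, another transcribed pseudogene (-0.55 ± 0.08, adjusted p = 0.0165), D030028A08Rik (-0.62 ± 0.13, adjusted p = 0.0375) and NR_002840 (-0.68, adjusted p = 0.0137). Tug1, a lncRNA known to bind Polycomb complexes, had 2 probes, and neither was called (-0.24, adjusted p = 0.182, and -0.03, adjusted p = 0.814).

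The 2 sides of a promoter could be set beside each other for 11 probes of 10 genes of this class. The test took the level of the lncRNA minus that of its coding partner on each array and asked whether that difference changed between genotypes, over 22 such pairs from every class. It was called for 1 pair in all, which is a background of 4.55%, and that pair was Gm44505 with Lpxn.

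Lpxn encodes leupaxin, an adaptor of focal adhesions that is best known from blood cells. Gm44505 had 0.03, 0.06, -0.16 and -0.35 in Atm-/- cells, against -0.69, -0.61, -0.95 and -0.86 in Atm+/+ cells, and the groups did not overlap (0.67 ± 0.08, adjusted p = 0.00808). Lpxn had -1.20, -1.42, -1.75 and -1.49 in Atm-/- cells, against -0.13, -0.42, -0.59 and 0.02 in Atm+/+ cells, also without overlap (-1.19 ± 0.11, adjusted p = 0.00473). So the levels of Gm44505 and Lpxn, whose starts lie 70 bases apart, differed in opposite directions. The pair test gave 1.86 ± 0.16 (limma adjusted p = 1.31e-05), and the call held under each alternative run. A scaling constant per array cancels in a pair difference, so runs that change only that constant could not alter the call. The run with no filter took the same pairs. The size was 1.72 with normexp, 1.86 with quantile normalization and 1.80 to 1.92 with arrays left out. Without either 24 h array 3 pairs of this class were called. RefSeq places the start of Zfp91, a coding gene on the strand of Gm44505, at the same base as that of Gm44505. Zfp91 differed by 0.07 ± 0.09 between genotypes and was not called (limma adjusted p = 0.600), which does not show that it was unchanged. Whether the probe of Gm44505 also binds RNA of Zfp91 was not tested. The macrophage and blood markers given above were lower in Atm-/- cells, as Lpxn was, and their part in its difference was not tested.

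4930412O13Rik and Gata3, a transcription factor of T cells and of several epithelia, were both higher in Atm-/- cells. The lncRNA had -4.27, -4.47, -4.34 and -4.86 in Atm-/- cells and -5.50, -5.41, -6.21 and -5.88 in Atm+/+ cells, with no overlap (1.27 ± 0.17, adjusted p = 0.0123). Gata3 had 0.73, 0.68, 0.63 and 0.23 in Atm-/- cells and 0.00, -0.16, -0.28 and -0.27 in Atm+/+ cells, again with no overlap (0.74 ± 0.09, adjusted p = 0.0102). Over the 8 arrays their levels had a Pearson r of 0.97, given as a description since the arrays share genotype, slide and time. It was the highest r of the 11 pairs of this class, and the lowest was -0.89, for a Tug1 probe with Morc2a. The pair test was not passed for 4930412O13Rik and Gata3 (0.52 ± 0.18, adjusted p = 0.113). The epithelial markers given above were higher in Atm-/- cells as well, and their part here was not tested.

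Of 2 further pairs only one side was called. Glrx5, a mitochondrial protein of iron-sulfur cluster assembly, had 0.48, 0.60, 0.37 and -0.02 in Atm-/- cells and 0.21, 0.32, 0.33 and -0.19 in Atm+/+ cells (0.19 ± 0.08, adjusted p = 0.162), beside the called Snhg10. Adarb1, an adenosine deaminase that edits RNA, had -0.15, -0.20, -0.01 and 0.10 in Atm-/- cells and 0.35, 0.22, 0.44 and 0.70 in Atm+/+ cells, without overlap (-0.49 ± 0.07, adjusted p = 0.0141). Its neighbour Gm17769 had -2.18, -2.30, -2.50 and -2.30 in Atm-/- cells and -2.07, -2.43, -2.20 and -1.61 in Atm+/+ cells, which overlap (-0.24 ± 0.15, adjusted p = 0.318). Neither pair passed the pair test (adjusted p = 0.316 for each), so no difference between the 2 sides was shown. The remaining pairs had pair differences of -0.29 to 0.54, and none passed. For NCS minus untreated none of the 22 pairs was called (background 0%), and the smallest p among the pairs of this class was that of Tug1 with Morc2a (0.40 ± 0.21, unadjusted p = 0.0869, limma adjusted p = 0.559). Without the Atm+/+ 24 h array 2 pairs of this class were called for NCS.

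**Figure D3:**
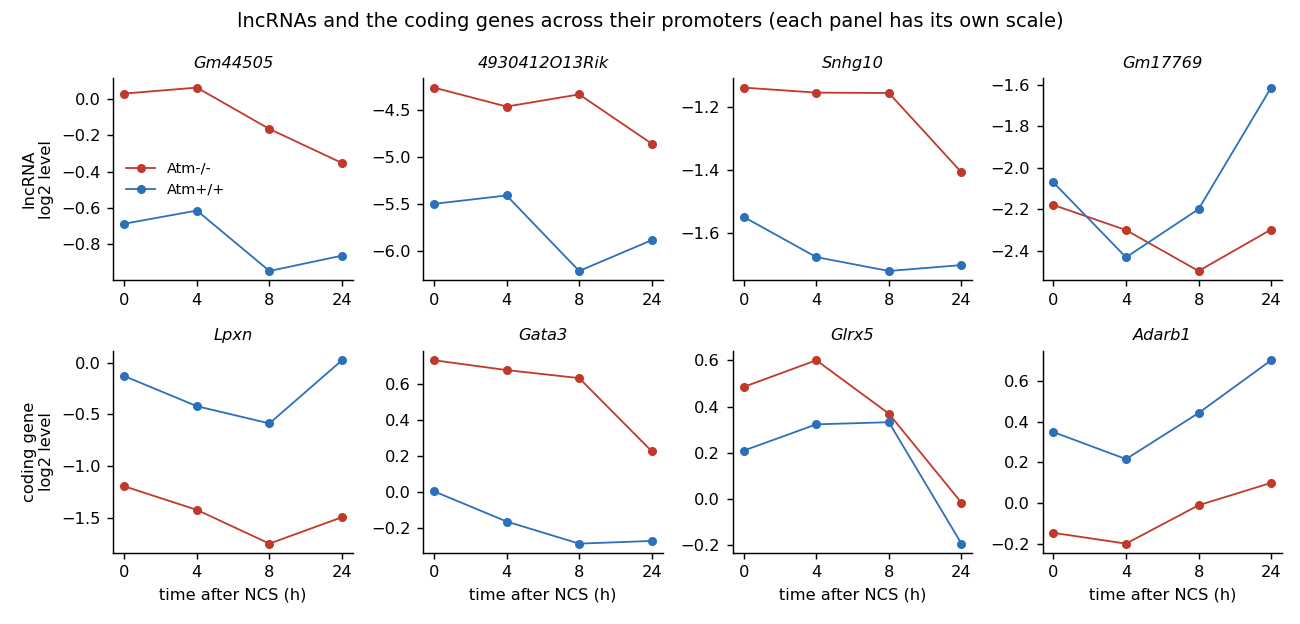
Levels (log2 above or below the array's 75th percentile, vertical axis, own scale per panel) by time after NCS (h, horizontal axis, evenly spaced) for 4 lncRNAs (top) and the coding genes across their promoters (bottom), 1 array per point, Atm-/- in red and Atm+/+ in blue. The red line is above the blue one for Gm44505 and below it for Lpxn, and above it on both sides of the 4930412O13Rik and Gata3 pair.

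After NCS, few RNAs of this class were called. Over the 3 treated time points together none of 790 passed (background 0.207%), with 99 at an unadjusted p under 0.05 (12.5%, against 13.8% of all probes). At 4 h none passed (background 0.108%), with 35 at an unadjusted p under 0.05 (4.43%, against 4.05% of all probes). At 8 h none passed (background 0.259%), with 84 at an unadjusted p under 0.05 (10.6%, against 11.7% of all probes). At 24 h 16 of 790 passed (2.03%, background 2.4%), 2 higher (background 1.03%) and 14 lower (background 1.37%). The median 24 h difference was -0.12 over the 790 RNAs and -0.07 over all probes. It was -0.11 for sense-overlapping, -0.10 for antisense and -0.08 for intergenic RNAs, so a median below that of all probes was not particular to this class. Taking out outlier spots ahead of the scaling moved the median of all probes at 24 h by 0.19, to 0.12, and that of the lncRNAs was then 0.07. In that order none of the RNAs passed at 24 h, so the 16 calls rest on a choice made after counts under the opposite order had been seen. Without any 1 of the 8 arrays, and without both 4 h or both 8 h arrays, none passed at 24 h either.

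Among the RNAs lower at 24 h, AK082312 had -4.04, -4.02, -4.38 and -5.80 in Atm-/- cells and -4.29, -4.81, -5.76 and -7.19 in Atm+/+ cells from 0 to 24 h. The 24 h array was the lowest of its genotype in both (-2.33 ± 0.31, adjusted p = 0.0460). Its Atm+/+ level at 24 h lay under the lowest signal well above background on that array (-5.58), so the size there is not measured, and with normexp the difference was -1.08. The transcript uc007pjf had -3.14, -3.10, -3.27 and -4.74 in Atm-/- cells and -3.13, -3.23, -3.31 and -4.65 in Atm+/+ cells. It was nearly level to 8 h and lower at 24 h in both genotypes (-1.56 ± 0.10, adjusted p = 0.0379). AK015886 had 0.10, 0.20, -0.13 and -1.10 in Atm-/- cells and 0.02, -0.04, -0.70 and -1.10 in Atm+/+ cells (-1.16 ± 0.16, adjusted p = 0.0482). AK007003 (-1.15 ± 0.11, adjusted p = 0.0444) and uc008elh (-1.12 ± 0.12, adjusted p = 0.0449) were also lowest at 24 h in both genotypes. The 2 higher RNAs were AK017999, with -2.43, -2.22, -2.07 and -1.50 in Atm-/- cells and -2.30, -2.23, -1.97 and -1.31 in Atm+/+ cells (0.96 ± 0.10, adjusted p = 0.0449), and uc007kvt (0.78 ± 0.10, adjusted p = 0.0460).

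**Figure D4:**
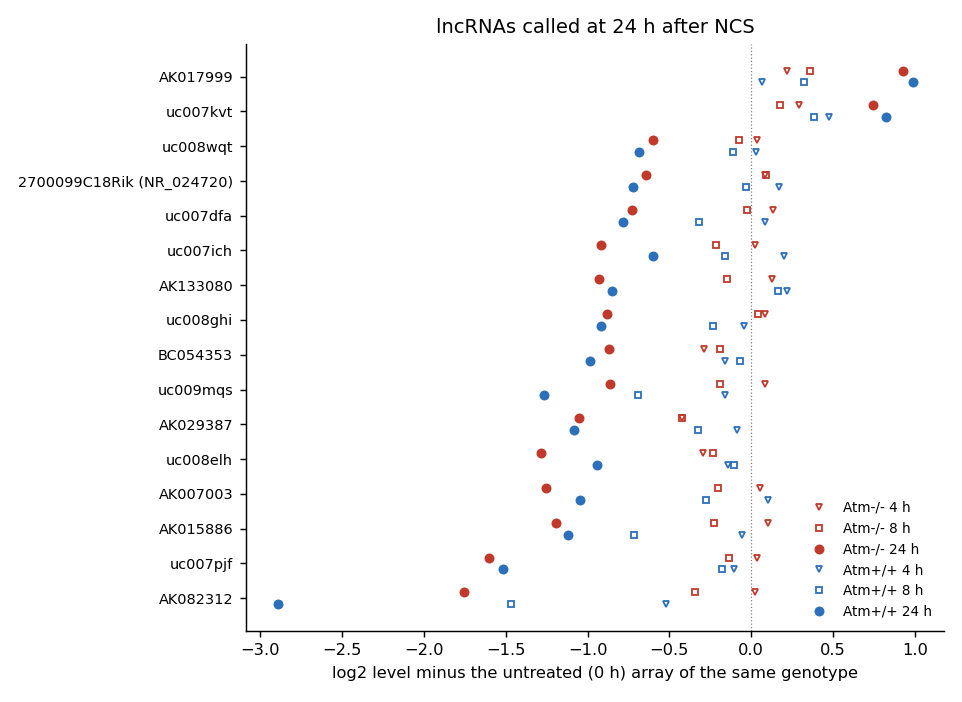
Level at 4, 8 and 24 h after NCS minus the untreated array of the same genotype (log2, horizontal axis) for the 16 RNAs called at 24 h, Atm-/- in red and Atm+/+ in blue, 24 h as filled circles. For each RNA the filled circles of both genotypes lie on the same side of 0, on the right for AK017999 and uc007kvt and on the left for the other 14.

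Of the RNAs lower at 24 h, 5 were also higher in Atm-/- cells: AK007003 (genotype difference 0.96), AK082312 (0.95), BC054353 (0.56), uc009mqs (0.53) and AK133080 (0.45). The 2 comparisons use the same arrays. Of the 6 macrophage and blood markers 3 were higher at 24 h, Lyz2 (1.30, adjusted p = 0.0444), Lyz1 (1.13, adjusted p = 0.0491) and Adgre1 (1.58, adjusted p = 0.0491), and Lyz1 and Adgre1 have no value on the Atm+/+ 24 h array, so that 1 Atm-/- array gives their 24 h level. Itgam (1.31, adjusted p = 0.0582), C1qa (0.16, adjusted p = 0.595) and Csf1r (0.05, adjusted p = 0.860) did not pass. Of the 4 endothelial markers Pecam1 was higher (0.97, adjusted p = 0.0460), Kdr was lower (-1.27, adjusted p = 0.0444), and Cdh5 (-0.47) and Tek (-0.19) did not pass. The part of these markers was not tested. Of the RefSeq RNAs only 2700099C18Rik was called at 24 h, with 0.10, 0.19, 0.19 and -0.54 in Atm-/- cells and 0.39, 0.56, 0.35 and -0.34 in Atm+/+ cells (-0.69 ± 0.10, adjusted p = 0.0491). Of 177 tested coding genes of the cell cycle and mitosis 45 were lower at 24 h and none higher (25.4%, median -0.61), of 165 DNA repair and checkpoint genes 7 were lower and none higher (4.24%), and of 52 p53 targets 1 was higher and none lower (1.92%), against 2.4% of all probes called. These calls are as open to the processing as those of the lncRNAs: over all probes the 556 calls at 24 h became 33 with outlier spots taken out first, 6 without the Atm-/- 24 h array and 0 without any other array.

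The RNAs with the smallest p for NCS over all times did not pass. AK020925 had -4.99, -3.53, -3.27 and -2.82 in Atm-/- cells and -4.47, -3.27, -2.80 and -3.37 in Atm+/+ cells from 0 to 24 h, so that the treated arrays lay above the untreated one in both genotypes (1.55 ± 0.23, adjusted p = 0.156). AK048002 had -5.79, -4.73, -4.88 and -4.83 in Atm-/- cells and -5.29, -4.77, -4.62 and -4.59 in Atm+/+ cells (0.81 ± 0.12, adjusted p = 0.161). The others were uc007pjf (-0.58), AK017999 (0.48) and uc007kvt (0.48). At 4 h, AK031486 was well above background on the 4 h array of each genotype only, with -8.15, -5.48, -8.11 and -8.21 in Atm-/- cells and -7.98, -3.86, -7.78 and -7.67 in Atm+/+ cells. Its 4 h difference was at least 2.48-fold (adjusted p = 0.127, not passed). Wt1os, which starts by the Wilms tumour gene Wt1, was likewise detected on the 4 h arrays only (at least 1.32-fold, adjusted p = 0.245). The others with the smallest p at 4 h were AK013093 (-1.50, adjusted p = 0.478), AK048002 and AK020925, and at 8 h AK035677 (at least 1.15-fold lower, adjusted p = 0.104), uc009ngu (at least 1.44-fold lower, adjusted p = 0.147), uc008lqc (1.10, adjusted p = 0.150), AK020925 (1.70, adjusted p = 0.158) and uc008xkk (1.03, adjusted p = 0.163).

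Within genotypes the untreated side is 1 array. In Atm-/- cells 1 RNA of 789 was called (background 0.0259%), and in Atm+/+ cells none of 789 (background 0.00863%, with 32 at an unadjusted p under 0.05, or 4.06% against 2.99% of all probes). The called one, uc009lsv, had -1.90, -4.04, -4.21 and -4.07 in Atm-/- cells and -3.66, -4.05, -3.87 and -3.78 in Atm+/+ cells. It was high on the untreated Atm-/- array alone (-2.21 ± 0.18, adjusted p = 0.0397), and the call was lost without any 1 of the 6 treated arrays. The RNAs next in p, uc009eux (1.87), AK140076 (1.35), AK003013 (1.22) and AK048002 (0.98), did not pass. In Atm+/+ cells the smallest p belonged to uc007vgq, with -2.29, -5.24, -5.15 and -4.93, against -4.85, -5.28, -4.82 and -5.69 in Atm-/- cells (-2.81 ± 0.33 within Atm+/+, adjusted p = 0.228). It was high on the untreated Atm+/+ array alone. AK021057 (-1.30), AK008259 (-1.97), AK034489 (at least 4.07-fold lower) and AK006872 (at least 2.91-fold lower) came next in p and did not pass. No difference of the NCS response between genotypes was called among 786 RNAs or among all probes (background 0%, smallest adjusted p = 1.00, with 40 RNAs at an unadjusted p under 0.05, or 5.09% against 2.48% of all probes), in a model with 2 residual degrees of freedom. The share at an unadjusted p under 0.05 in this limma test was 6.84% for intergenic, 4.02% for antisense and 2.86% for sense-overlapping RNAs. The smallest p among the RNAs of this class belonged to AK035802 (1.93), uc009lsv (-1.97), AK015114 (1.75), AK006235 (1.09) and AK156190 (-0.96), of which AK035802, AK015114 and AK006235 were well above background on 2 to 4 arrays only.

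On single arrays, and with no test, RNAs above background on both arrays differed by more than 2-fold between Atm-/- and Atm+/+ cells for 5.04% at 0 h (18 higher, 16 lower of 675, background 3.93%), 4.22% at 4 h (background 4.17%), 3.97% at 8 h (background 4.64%) and 6.82% at 24 h (23 higher, 18 lower of 601, background 7.59%). The median genotype difference of these RNAs was 0.113 at 0 h, 0.092 at 4 h, 0.038 at 8 h and -0.045 at 24 h. Over all probes above background on both arrays it was -0.005, 0.004, 0.010 and -0.041. From 0 to 24 h, 5.6% of the RNAs changed by more than 2-fold in Atm-/- cells (14 higher, 25 lower, background 4.49%) and 3.7% in Atm+/+ cells (4 higher, 18 lower, background 4.03%). Across the 556 RNAs measured on all of these arrays, the 24 h differences of the 2 genotypes, which share no array, had r = 0.24 and the same sign for 57.6%, against r = 0.43 and 66.5% over 18573 probes. At 8 h the values were r = 0.38 and 66.2%, against r = 0.51 and 64.8%, and at 4 h r = 0.18 and 56.8%, against r = 0.41 and 60.7%. These are values across RNAs, which are not independent replicates.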

How the data were processed

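RNA of 8 cultures was measured on 1-colour Agilent arrays. Per the labels' protocols, ribosomal RNA was removed and the target was made by random priming. Feature Extraction 10.5.1.1, named in the headers, gave the deposited processed intensity, background-subtracted and detrended within each array, and the median pixel intensity of spot and local background. Strand and probe position were not used here. The authors' deposited log2 table holds log2 of the same processed signal minus 1 constant per array, as set against the scanner values, although its header calls the columns ratios. It was used for the class of each probe and as an alternative.

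Processed signals were put on the log2 scale, spots of a probe averaged, and the array's 75th percentile over 37246 probes subtracted. A value was then left out where all its spots were marked as outliers, which left 23 of the 792 tested RNAs with a missing value. Probes well above background on at least 2 arrays were kept (23305 probes). An RNA below background on all arrays of 1 side has only a bound: the mean of the bright side against that of the dim side, where each dim array counts at its own value or at its lowest signal well above background, whichever is higher. limma 3.58.1 in R 4.3.3 was used, two-sided, with Benjamini-Hochberg adjustment over all kept probes and calls at adjusted p under 0.05. SE is that of the fit. No group has a second array, so p-values rest on the spread left by a model of time point and genotype (3 residual degrees of freedom) or of 4 groups (4), and time points stand in for replicates. The number of arrays limits the precision.

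Names and promoters came from RefSeq (GRCm38.p6). The array follows mm9, so no positions were carried over. A coding gene was a partner where it starts on the opposite strand from 500 bases of overlap to 5000 bases away, a window chosen after the files were seen. The RNAs, gene lists and tests were chosen with earlier results of these data known, and scaling before outlier removal was taken over from an earlier analysis of these arrays, which had changed to it from the opposite order after seeing that version's counts. Here the opposite order gives 63 in place of 95 RNAs by genotype and 0 in place of 16 at 24 h, and 1 in place of 0 for NCS and at 4 h.

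The named RNAs are the 12 with the largest difference in each direction among those called with the same sign at every time point (genotype), the 5 largest in each direction among those called (other comparisons), or the 5 with the smallest p where fewer than 5 were called, with the called pairs, the pairs called on both sides the same way and the pairs with the smallest p. Rmrp, Snhg1, Snhg10, Gm10052, D030028A08Rik, NR_002840, Tug1, 2700099C18Rik, the other RNAs called in both comparisons, the RNAs next to the threshold, Snhg10 with Glrx5 and Gm17769 with Adarb1 were added after their values were seen. The alternatives were the scaling, background correction, filter, probe set and moderation, the authors' log2 table, and leaving out arrays. The promoter windows without those of coding names were an alternative chosen after seeing the data.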

Additional observations from a re-analysis of the deposited data

Results flagged for a closer look

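In 3 of the named RNAs the 3 treated arrays all lay above the untreated array in Atm-/- cells and all below it in Atm+/+ cells. Over the whole class this held for 11 of 769 RNAs (1.43%, against 2.04% of all probes), and the opposite pattern, below in Atm-/- cells and above in Atm+/+ cells, for 32 (4.16%, against 2.14%). AK035802 was well above background on 2 of the 8 arrays and AK006235 on 3, so most of their values are signals not well above background and their sizes are not measured. The fitted difference of response was 1.93 for AK035802 and 1.09 for AK006235, and with normexp it was 0.61 and 0.13. AK044300, well above background on 6 arrays, differed from the untreated array by 0.50, 0.63 and 1.19 (log2) at 4, 8 and 24 h in Atm-/- cells and by -0.09, -0.10 and -0.20 in Atm+/+ cells, a difference of 0.91 ± 0.38. None of the 3 passed the test of the difference itself (limma adjusted p = 1.00 for each), and each untreated level is 1 array.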

How the results depend on the processing

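The labels give no replicate numbers, with 1 array per group, so arrays could be paired across genotypes by time point only. Time point was a term of the genotype model. The genotype count of 95 became 63 with outlier spots taken out ahead of the scaling, 49 with no filter on dim probes and 32 in the authors' log2 table, and 28 to 159 when arrays were left out; under the other 7 alternatives it was 65 to 106. Like counts can hold unlike RNAs: with normexp 84 were called, and 57 of these were among the 95. The median of all probes moved by -0.07 in the genotype comparison with outlier spots taken out first and by -0.11 with no filter. The 24 h count of 16 became 0 with outlier spots taken out first, with no filter, in the authors' log2 table and with noncoding probes only, 36 with probes well above background on all 8 arrays and 33 with a trended, robust eBayes; it was 0 whichever arrays were left out. The count of 0 for NCS became 1 when outlier spots were removed first, and 0 to 1 without arrays. The count of 0 at 4 h became 1 when outlier spots were removed first and 1 with normexp, and stayed 0 without arrays. The count of 0 at 8 h was 0 to 3 without arrays. Within Atm+/+ the count of 0 became 4 with no filter and 6 in the authors' table, and stayed 0 without arrays. Within Atm-/- the count of 1 became 0 when outlier spots were removed first and with the percentile over detected probes, 6 with no filter and 8 in the authors' table, and was 0 to 1 without arrays. The difference of response stayed at 0 under all alternatives. Of the pairs, 1 to 3 were called for genotype and 0 to 2 for NCS without arrays. Of the 7 RNAs named at 24 h, all lost the call under some alternative and none changed direction. Signals near background limit the precision: 217 RNAs were detected on 2 to 7 arrays.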
